A study of Mus musculus with 8 samples.

Results

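Lrtm1 encodes a single-pass membrane protein with leucine-rich repeats, and its gene lies inside Cacna2d3, which encodes the calcium channel subunit alpha2delta-3. Lrtm2, its homologue, lies in the same way inside Cacna2d4, the gene of alpha2delta-4. These 4 genes, of 19938 measured, were described in gastrocnemius muscle with and without the acetyltransferase Gcn5 in the fibres. Lrtm1 was selected on its difference between genotypes, as 1 of the 3 genes (0.0150% of all) past a 5% false discovery rate in that comparison, and the others were chosen for their place beside it or for kinship. Each of the 4 genes had 1 transcript cluster, the array's unit for a gene, so there was no second cluster to set beside it.

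The 8 samples were from male mice, 6 months old, on chow and fasted for 5 h, with 1 Affymetrix array per animal. All mice carried Gcn5 L2/L2, the floxed allele of Kat2a. The 4 knockout mice (Gcn5skm-/-, HSAcre Tg/0) also carried a Cre transgene driven by the promoter of human skeletal actin, so that only muscle fibres recombine the allele and other cells keep the gene. The 4 wild-type mice (Gcn5skm+/+, HSAcre 0/0) had no Cre, so effects of Cre itself and of the deletion cannot be told apart. Values are log2 expression after the authors' RMA normalization, and differences are knockout minus wild type with a standard error (SE) from limma. The number of arrays limits the precision.

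Voltage-gated calcium channels consist of a pore-forming alpha1 subunit with beta, alpha2delta and, in skeletal muscle, gamma subunits. In skeletal muscle the channel of the transverse tubule, the dihydropyridine receptor, senses voltage and opens the ryanodine receptor of the sarcoplasmic reticulum, and its alpha2delta subunit is alpha2delta-1. Alpha2delta-3 is known from neurons and alpha2delta-4 from photoreceptors. Lrtm1 has been used as a surface marker of midbrain dopaminergic progenitors, and little is known of its role in muscle fibres.

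Kat2a checked the labels: it measured between 6.43 and 6.50 in the wild types and between 5.73 and 5.84 in the knockouts. Defining fibre markers were present, with a mean over 10 genes of 11.95 to 12.01 in wild type and 11.92 to 11.98 in knockout. Wild type 2 lay apart from the rest on the first principal component, and wild type 4 and knockout 4 lay at opposite ends of the second.

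The nested gene and its host start at different promoters on opposite strands. The windows of both are shown because a transcript begun at the host's promoter is read from the other strand than that of Lrtm1. Each holds 250 bases before the annotated start and 50 after it, from RefSeq on GRCm38.p6, 5′ to 3′ on the gene's own strand. Capitals mark the E-box (CANNTG, where muscle regulatory factors can bind), the AP-1 motif (TGANTCA) and the GC box (GGGCGG), searched on both strands.
Lrtm1: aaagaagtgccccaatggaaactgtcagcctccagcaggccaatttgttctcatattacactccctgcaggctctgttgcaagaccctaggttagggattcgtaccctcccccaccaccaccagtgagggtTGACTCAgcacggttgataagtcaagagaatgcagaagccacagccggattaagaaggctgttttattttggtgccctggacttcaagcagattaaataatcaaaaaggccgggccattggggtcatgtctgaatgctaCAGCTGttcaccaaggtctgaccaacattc
Cacna2d3: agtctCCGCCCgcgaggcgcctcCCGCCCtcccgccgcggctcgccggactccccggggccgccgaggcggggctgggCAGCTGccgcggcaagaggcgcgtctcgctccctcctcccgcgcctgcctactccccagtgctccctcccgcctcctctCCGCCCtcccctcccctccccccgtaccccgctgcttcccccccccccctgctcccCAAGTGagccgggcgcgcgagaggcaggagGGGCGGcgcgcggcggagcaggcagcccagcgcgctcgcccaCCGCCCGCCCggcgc

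The Lrtm1 window is chr14:29017958-29018257 on the plus strand and that of Cacna2d3 is chr14:29721815-29722114 on the minus strand. Their base composition differed widely. The host's window had 81.3% G and C, more than 99.3% of the 32851 promoter windows in the table, and 41 CpG dinucleotides. The Lrtm1 window had 49.3% G and C and 4 CpG dinucleotides, against medians of 52.7% and 7 over all windows. The host's window held 6 GC boxes, of which the last 2 overlap, and 2 E-boxes, while Lrtm1 held 0 GC boxes. A GC box was found in 35.7% of all windows and an E-box (CANNTG) in 72.3%. In the Lrtm1 window the AP-1 motif is at bases 132 to 138, and it occurred in 7.81% of all windows. Its E-box, CAGCTG at bases 271 to 276, lies after the start, and 16.3% of windows held these letters. CAGCTG also occurs in the host's window, at bases 79 to 84. Neither window held a TATA box (TATAAA), a MEF2 motif or a CArG box, found in 13.6%, 3.19% and 1.63% of windows. The RefSeq table held windows for 3 of the 4 genes. Of the 2 windows of Lrtm2, on the minus strand of chromosome 6, the first had 62.3% and the second 60.3% G and C. These matches describe letters and were not tested for binding.

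Lrtm1 was more abundant in the knockouts by 1.49 log2 units, or 2.80-fold. In wild types 1 to 4 it measured 6.95, 7.21, 6.34 and 6.54, and in knockouts 1 to 4 it measured 8.20, 8.17, 7.94 and 8.68. Every knockout lay above every wild type, and the lowest knockout (7.94) was 0.73 above the highest wild type (7.21). The group values were 6.76 ± 0.39 in wild type and 8.25 ± 0.31 in knockout (SD, n = 4 each), and the difference had an SE of 0.19 and a 95% interval of 1.07 to 1.90. Among all genes this was the fourth largest difference in either direction. These values chose the gene and are given as a description. The call that chose it depended on single arrays. Its adjusted p in limma was 0.0425, and it was 0.0619 and 0.164 without wild types 3 and 4. It was 0.137, 0.0823, 0.123 and 0.0847 without knockouts 1 to 4 in turn. The size of the difference ran from 1.34 to 1.64 over the 8 fits that left out 1 array.

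The host gene Cacna2d3 did not pass the test. It measured 3.20, 3.35, 3.40 and 3.43 in wild types 1 to 4 and 3.48, 3.44, 3.49 and 3.32 in knockouts 1 to 4. The groups overlapped, since knockout 4 lay below 3 of the wild types. The difference was 0.09 (SE 0.09, 3.35 ± 0.10 against 3.43 ± 0.08, n = 4 each, limma adjusted p = 0.924). Its 95% interval ran from -0.10 to 0.28.

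The array with the most Lrtm1 was not one with much host signal. Knockout 4 had the highest Lrtm1 value of all 8 arrays and the lowest Cacna2d3 value among the knockouts. Among the wild types, wild type 2 and wild type 1 had the most Lrtm1 and the least Cacna2d3. Cacna2d3 was dim and spanned only 3.20 to 3.49 over the 8 arrays, so its order between arrays may be noise. The gap below therefore follows mainly Lrtm1. The log2 gap between the genes, Lrtm1 minus Cacna2d3, was 3.75, 3.87, 2.94 and 3.10 in wild types 1 to 4 and 4.72, 4.73, 4.45 and 5.36 in knockouts 1 to 4. Only the change of this gap can be read, because different probes have different brightness. The narrowest gap among the knockouts was wider than the widest among the wild types, and its mean increased by 1.40 (3.42 ± 0.46 against 4.82 ± 0.39). As the gap contains the gene chosen for its difference, no test is given.

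**Figure D1:**
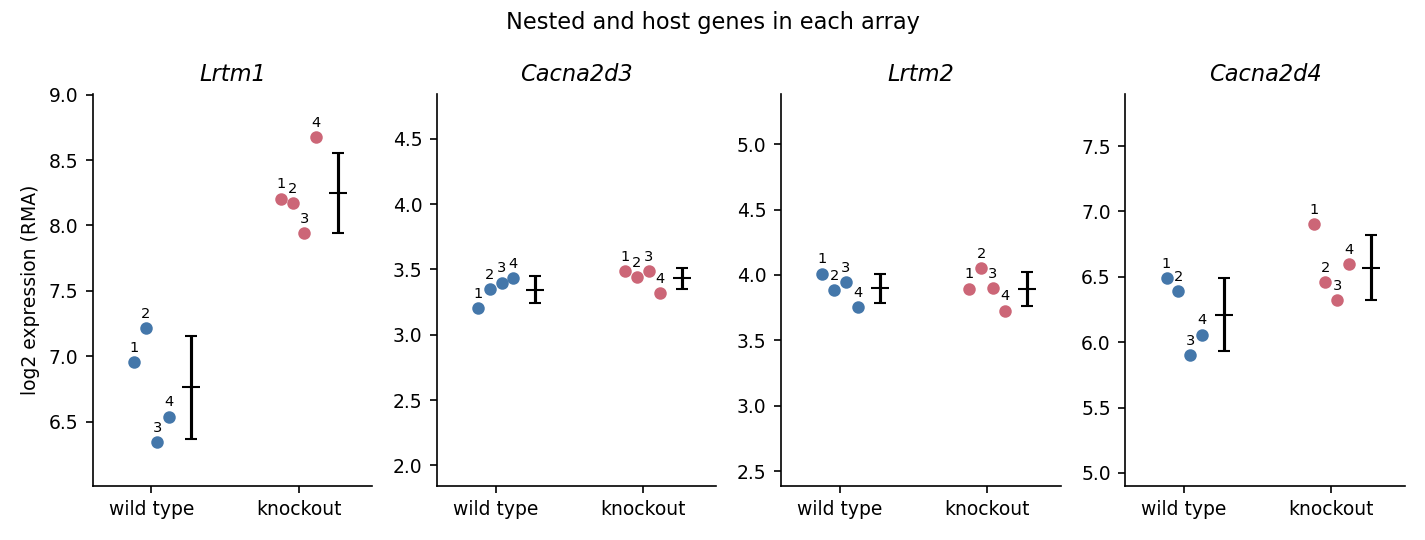
Log2 expression of the 4 genes in each array (points, numbered by replicate; wild type blue, knockout red) with the group mean and SD (bars, n = 4); all panels span the same range of log2 units. Lrtm1 lies between 6.34 and 7.21 in wild type and between 7.94 and 8.68 in knockout, while the other 3 genes overlap between genotypes.

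Signal of the host was dim, and RMA compresses differences of dim transcripts. Cacna2d3 averaged 3.39 and Lrtm2 3.89 over the 8 arrays. As a rough guide to the dim end, chosen after the values were seen, 1190 olfactory and vomeronasal receptor genes had a median of 2.71 and a 95th percentile of 4.28. Both genes lay below that percentile, so a change in a host transcript near the detection limit may not be measurable here. Cacna2d4 averaged 6.39 and Lrtm1 7.50, both above it.

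Lrtm2, the homologue nested in Cacna2d4, measured 4.01, 3.88, 3.94 and 3.75 in wild types 1 to 4 and 3.89, 4.05, 3.90 and 3.73 in knockouts 1 to 4. The ranges of the genotypes lay almost on top of each other. Its difference was -0.00487 (SE 0.10, 95% interval -0.21 to 0.20, limma adjusted p = 0.995). Its sign changed under 5 of 18 alternatives.

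Cacna2d4, the host of Lrtm2, measured 6.49, 6.39, 5.90 and 6.06 in wild types 1 to 4 and 6.90, 6.46, 6.32 and 6.60 in knockouts 1 to 4. Wild types 1 and 2 lay within the range of the knockouts, so the groups overlapped. The difference was 0.36 (SE 0.15, 95% interval 0.03 to 0.69, 6.21 ± 0.28 against 6.57 ± 0.25, n = 4 each), and it did not pass (limma adjusted p = 0.861). Before adjustment p was 0.0334 in limma, place 759 of 19938 genes ordered by p, and 5.73% of all genes had an unadjusted p under 0.05. It lay above 0 in every fit without 1 array, from 0.25 without knockout 1 to 0.45 without wild type 1. At this locus the larger difference was that of the host and at the other that of the nested gene; the contrast between the loci was not tested.

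**Figure D2:**
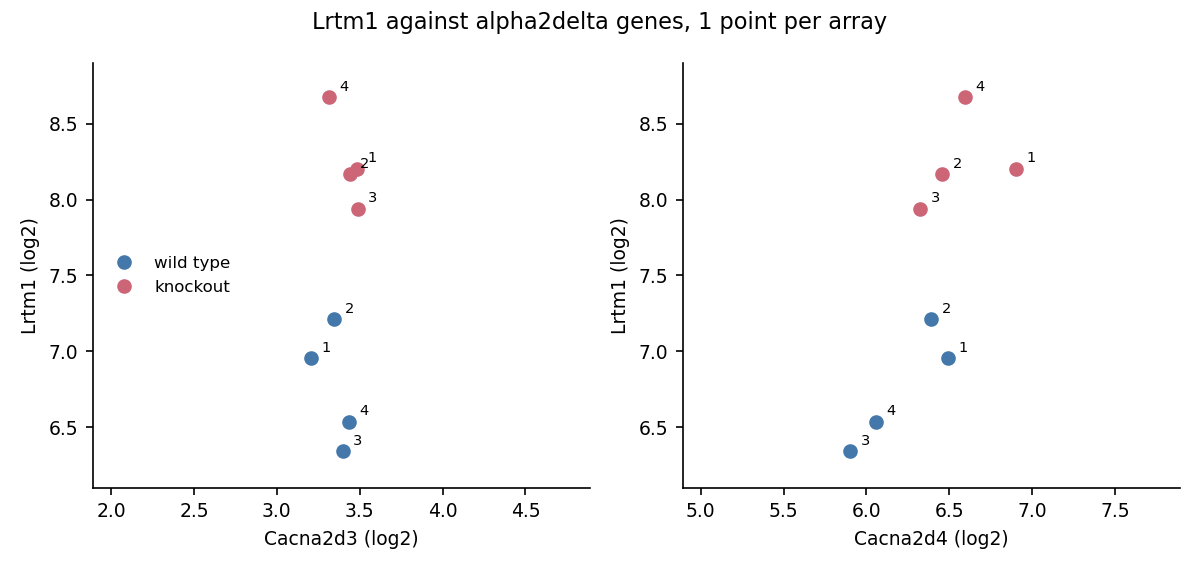
Lrtm1 against its host Cacna2d3 (left) and against Cacna2d4 (right), log2 expression, 1 point per array numbered by replicate; both horizontal axes span the same range. Lrtm1 separates the genotypes at nearly constant Cacna2d3, from 3.20 to 3.49, and the arrays with little Lrtm1, wild types 3 and 4, also have the least Cacna2d4.

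The levels of Lrtm1 and Cacna2d4 varied alike over the wild types: wild types 1 and 2 were high and wild types 3 and 4 low for both genes. In the knockouts the order differed, with Lrtm1 highest in knockout 4 and Cacna2d4 highest in knockout 1. Over the 8 arrays Pearson's r between them was 0.78, place 287 among 19937 genes ordered by r to Lrtm1, and 0.68 after each genotype's mean was subtracted (place 2351). For Cacna2d3 these r values were 0.21 and -0.71, and for Lrtm2 -0.11 and -0.22. With 8 arrays such values are wide: from the 5th to the 95th percentile of all genes the first measure ran from -0.67 to 0.63 and the second from -0.76 to 0.80. The r over 8 arrays includes the genotype difference that chose Lrtm1, so it is a description.

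The genes most like Lrtm1 over the 8 arrays were Pcbd1 (r = 0.98), Gzmd (0.97), Gm4779 (0.97), Fgfrl1 (0.94) and Dtwd1 (0.94). Pcbd1 encodes a dehydratase that recycles the pterin cofactor and also binds the transcription factor HNF1. It measured 4.54, 4.55, 4.20 and 4.24 in wild types 1 to 4 and 4.97, 4.83, 4.93 and 5.28 in knockouts 1 to 4. Like Lrtm1 it was low in wild types 3 and 4 and highest in knockout 4. Its difference was 0.62 (limma adjusted p = 0.205). Gzmd, a granzyme gene, was dim, at 2.55 ± 0.16 and 2.89 ± 0.07, and Fgfrl1, a receptor-like protein that binds fibroblast growth factors, differed by 0.26 (limma adjusted p = 0.785). The lowest r values were those of Rpn1 (-0.96), Tuba1a (-0.95) and Ldlrad2 (-0.94). Tuba1a, an alpha-tubulin gene, averaged 7.02 ± 0.22 in the wild types against 6.57 ± 0.13 with the deletion (difference -0.45, limma adjusted p = 0.507). Its groups did not overlap, as in 2.14% of all genes in the lower direction. Tuba1a was picked for its r to a gene that itself separates the genotypes, so this is no separate result.

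With the genotype means subtracted, which removes the difference that chose Lrtm1, other genes led. The highest r values belonged to Usp37 (0.99), Khdc4 (0.98), Herc2 (0.98), Rcsd1 (0.98) and Hdgf (0.97), of which Usp37 encodes a deubiquitinase and Herc2 a ubiquitin ligase. Usp37 measured 4.92, 5.05, 4.41 and 4.55 in wild types 1 to 4 and 4.85, 4.88, 4.69 and 5.22 in knockouts 1 to 4, so its genotypes overlapped. The lowest were Gxylt1 (-0.99), Igfbp6 (-0.98) and Wnt5b (-0.98). Wnt5b, which encodes a secreted Wnt ligand, is also a neighbour of Cacna2d4.

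Genes around the 2 loci were compared to see whether neighbours moved with Lrtm1. Of the 10 measured genes nearest to Cacna2d3, 5 were higher and 5 lower, with a median difference of -0.03 and a range of -0.16 to 0.15. The adjusted threshold was passed by 0 of them in limma, and 0 had an unadjusted p under 0.05, which 5.73% of all genes had. The nearest on each side were Wnt5a, another secreted Wnt ligand, at -0.15 (SE 0.10, limma adjusted p = 0.879) and Selenok, a selenoprotein of the endoplasmic reticulum, at -0.14 (SE 0.11, limma adjusted p = 0.886). Cacna1d, which encodes a pore subunit and lies among these genes, differed by 0.03. Around Cacna2d4, 3 of 10 neighbours were higher and 7 lower (median -0.08, range -0.29 to 0.19). There 0 passed in limma, and Wnt5b alone had an unadjusted p under 0.05 (difference -0.29, limma adjusted p = 0.861), 1 of 10 against 5.73% of all genes. The nearest, Dcp1b, an mRNA decapping factor, and Adipor2, a receptor of adiponectin, differed by 0.06 and -0.06. Groups overlapped in each of these neighbours.

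**Figure D3:**
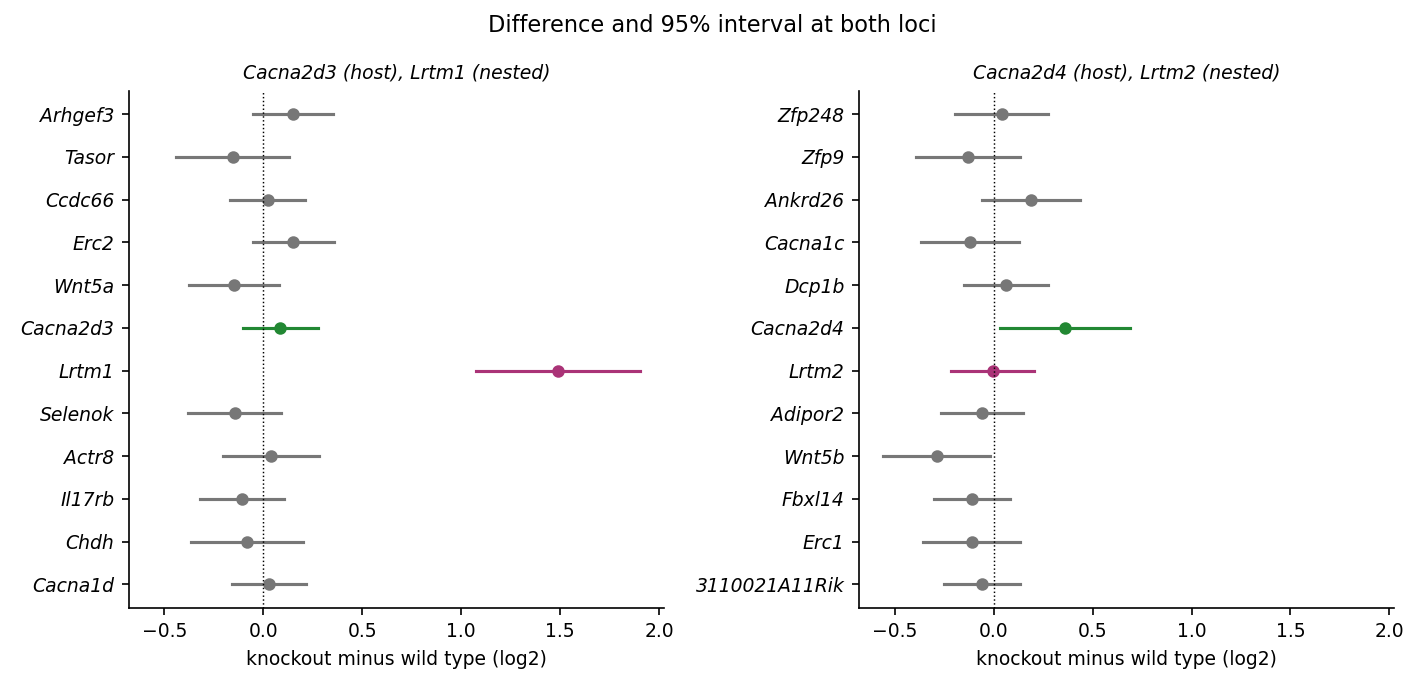
Difference between genotypes (knockout minus wild type, log2) with its 95% interval from limma for each host gene (green), its nested gene (purple) and the 5 measured neighbours on either side (grey), listed in chromosome order. Lrtm1 at 1.49 stands to the right of its host at 0.09 and of its neighbours, which lie between -0.16 and 0.15.

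The other subunit genes of voltage-gated calcium channels differed little between genotypes as measured. Part of them were dim, with both group means below 4.28, the guide to the dim end used above. Examples are Cacng3 (2.67 in wild type and 2.62 in knockout), Cacna1f (3.51 and 3.55), Stac (4.24 and 4.08) and Cacng5 (4.15 and 4.04). For such genes a change may not be measurable here. Of 27 measured genes on a list of pore, alpha2delta, beta, gamma and STAC adaptor genes, 12 were higher and 15 lower, with a median difference of -0.03 against -0.01 over all genes. In limma 0 passed over all genes, where 0.0150% did. At an unadjusted p under 0.05 there was 1 higher, Cacna2d4 itself, and 0 lower, where 2.34% of all genes were higher and 3.39% lower, so this count is near the background.

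The subunits of the muscle channel were bright, and all but Cacna2d1 were nearly level. Cacna2d1 had the lowest difference of the 27 channel genes. Cacna1s, the pore of the dihydropyridine receptor, measured 10.90 ± 0.09 in wild type and 10.87 ± 0.07 in knockout, Cacnb1, its beta subunit, differed by -0.09 and Cacng1, its gamma subunit, by -0.06. Cacna2d1, which encodes the alpha2delta-1 of muscle, measured 10.13, 10.57, 10.01 and 10.26 in wild types 1 to 4 and 10.07, 9.94, 9.98 and 10.06 in knockouts 1 to 4. The groups overlapped, with wild type 2 the highest, and the difference was -0.23 (SE 0.12, 95% interval -0.48 to 0.02, limma adjusted p = 0.869). Cacna2d2 differed by 0.11 (limma adjusted p = 0.906), so of the 4 alpha2delta genes 3 were above 0 and the muscle form below it, and 0 passed. Among the other subunits Cacng7 differed by -0.22, the beta subunit gene Cacnb4 by 0.18, the adaptor gene Stac by -0.16 and Cacng5 by -0.11, with limma adjusted p values from 0.869 to 0.900.

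**Figure D4:**
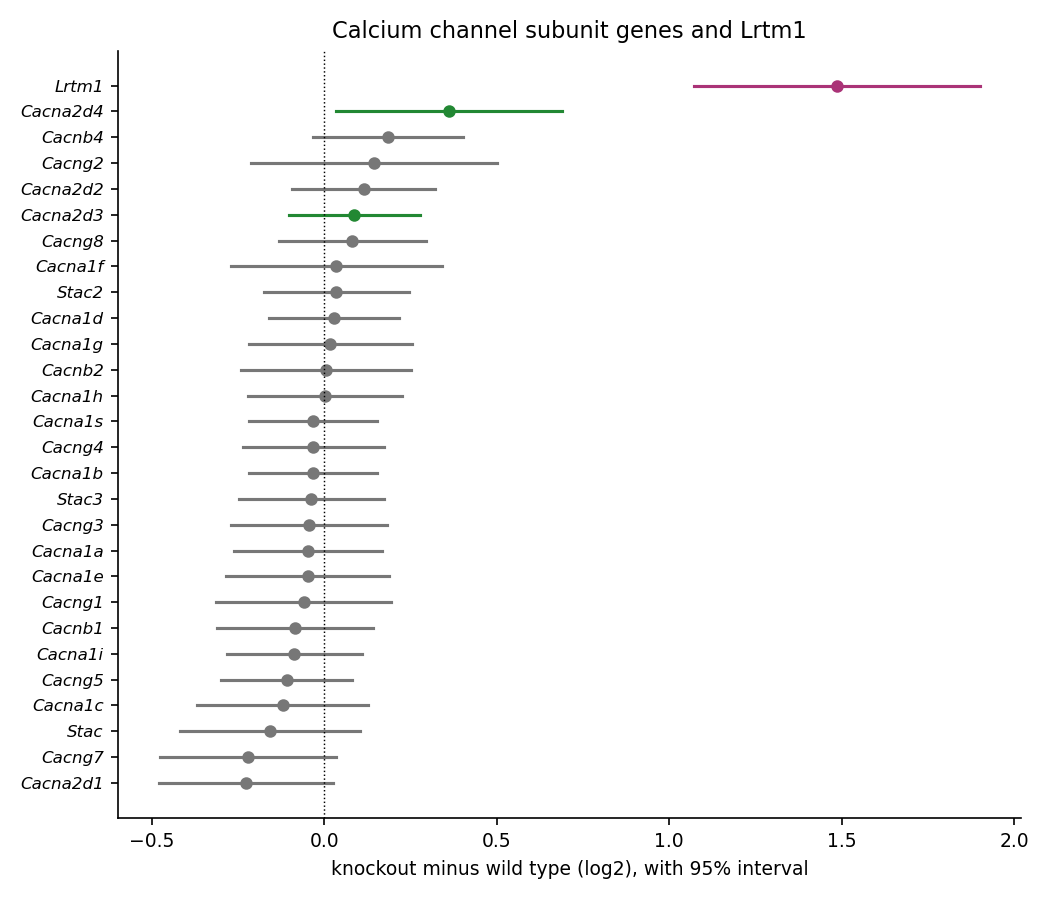
Difference between genotypes (log2, knockout minus wild type, with the 95% interval) of the 27 calcium channel genes, with both hosts in green, and of Lrtm1 in purple. Lrtm1 at 1.49 lies beyond all of them, and Cacna2d4 at 0.36 is the highest of the channel genes.

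Proteins reported to bind alpha2delta subunits were measured as well. Of 7 genes 3 were higher and 4 lower (median -0.06), and 0 passed in limma or had an unadjusted p under 0.05. Thbs4 and Thbs1, which encode thrombospondins of the extracellular matrix, differed by 0.21 and -0.22, and Lrp1, a large endocytic receptor, by -0.11.

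Lrtm1 belongs to a wider group of membrane proteins with extracellular leucine-rich repeats, many of which organise synapses or guide axons. Of 52 measured genes 24 were higher and 28 lower (median -0.01), and Lrtm1 was the 1 that passed. As Lrtm1 was chosen for its difference, its place in this count and in those below was fixed beforehand and says nothing about the group. Before adjustment 3 higher and 1 lower genes were under 0.05, against 2.34% and 3.39% of all genes. Besides Lrtm1 these were Lingo1, a co-receptor of the Nogo receptor (difference 0.29, limma adjusted p = 0.859), Lrrn4 (0.27, 0.861) and Rtn4rl2. Rtn4rl2, a homologue of the Nogo receptor, measured 6.07, 6.24, 6.20 and 6.48 in wild types 1 to 4 and 5.76, 5.89, 5.86 and 5.97 in knockouts 1 to 4. Each knockout lay below each wild type, with a difference of -0.38 (SE 0.10, limma adjusted p = 0.538). Groups did not overlap in 1 higher gene, Lrtm1, and in 5 lower genes, where 1.48% and 2.14% of all genes did so. The lower ones were Rtn4rl2, the synaptic organiser gene Lrrtm1 (-0.22), and Flrt3 (-0.15), Slitrk4 (-0.13) and Lrfn2 (-0.10), the last 3 named after their values were seen. Lrrtm1, Flrt3 and Slitrk4, like Lrrn4, were dim, with both group means below 4.28, the guide to the dim end. Lrfn2 was near it, at 4.34 in wild type and 4.24 in knockout. Unadjusted p in limma was 0.0506, 0.101, 0.122 and 0.271 for Lrrtm1, Flrt3, Slitrk4 and Lrfn2.

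Markers of other cell types moved with Lrtm1 in some arrays. Macrophage markers were higher in 14 of 15 cases, with 8 at an unadjusted p under 0.05, where 2.34% of all genes were higher at that level, and 0 past the adjusted threshold in limma. Groups did not overlap in 3 of the 15, all higher, against 1.48% of all genes. The macrophage list averaged 5.79, 5.70, 5.95 and 6.42 in knockouts 1 to 4, and the wild types ranged from 5.55 to 5.67, without overlap. Tyrobp, C1qb and Trem2, the 3 with the smallest p in limma, differed by 0.65, 0.42 and 0.42. The markers did not move alike: differences ran from -0.11 (Cd163) to 1.29 (Gpnmb). C1qa, C1qc and Mrc1 differed by only 0.11, 0.07 and 0.12. Knockout 4 was highest for the list and for Lrtm1. Without knockout 4 the Lrtm1 difference was 1.34. The list mean was above all wild types in the remaining knockouts too, so that fit does not take the list's difference away. Among the knockouts Lrtm1 was lowest in knockout 3, which was second highest for the list. In a bulk sample more cells of a type and more RNA per cell cannot be told apart, and the part of these cells in the Lrtm1 values was not tested.

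Other lists overlapped between genotypes or moved less. The erythroid mean was 5.47 to 5.63 in wild type and 5.66 to 5.91 in knockout, without overlap (4 of 4 measured genes higher, 2 of them, Car2 and Bpgm, at an unadjusted p under 0.05, against 2.34% of all genes). Its part in the Lrtm1 values was not tested either. Nerve and Schwann cell markers were lower in 10 of 13 cases, with list means of 4.24 to 4.94 and 4.33 to 4.65, and Ncmap differed by -0.57. The slow-fibre mean varied most between animals, from 6.24 to 8.18 in wild type. In knockout it ran from 5.50 in knockout 4 to 8.78 in knockout 3, the knockouts with the most and the least Lrtm1. The wild types followed no single order. The mean was 8.18 in wild type 2, which had the most Lrtm1 of them, and 6.35 in wild type 3, which had the least. But it was lowest, at 6.24, in wild type 1, where Lrtm1 was high (6.95). In wild type 4 it was 8.05, where Lrtm1 was low (6.54). A link to Lrtm1 was not tested. Genes of the neuromuscular junction and of denervated fibres had a median difference of -0.04, with Musk, the receptor kinase of the junction, at -0.75 and Gadd45a at 0.37. The means of the endothelial, fibro-adipogenic progenitor, adipocyte and tendon lists overlapped and differed by -0.04, 0.00128, 0.00895 and 0.08. Over all these lists 0 genes passed in limma. At an unadjusted p under 0.05 there were 3 nerve and Schwann cell genes lower, 1 progenitor gene (Pi16) lower, and 1 junction gene in each direction, where 2.34% of all genes were higher and 3.39% lower. A single gene in lists of 7 to 15 is above these shares, as are 3 of 13 nerve and Schwann cell genes. Counts this small were not tested against them.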

How the data were processed

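The deposited values are log2 expression, which the authors computed by RMA with Affymetrix Expression Console according to the submitters' processing notes; versions, settings and the array's genome build are not given in the sources used here. Of 35556 transcript clusters 21789 had 1 gene symbol, 1621 had several and 12146 were unnamed here. A gene with several clusters took the cluster of highest mean, giving 19938 genes, dim ones included. None of the 4 members occurred in a cluster with several symbols.

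Groups came from the sample titles. The replicates are separate animals per the labels. The genotype difference was fitted by limma 3.58.1 (lmFit, then eBayes; R 4.3.3; 6 residual and 6.26 prior degrees of freedom). P values were adjusted by Benjamini-Hochberg over the 19938 genes, and 0.05 was the threshold. The steps were tested on simulated data. Array medians lay between 4.61 and 4.72.

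The members, gene lists and tests were chosen with earlier results of these data known. Named genes were the members, Kat2a, the subunits of the muscle channel, the list members with the smallest p (4 each of the channel and leucine-rich repeat lists, 3 of the partners, up to 3 per marker list), the nearest neighbours and any neighbour whose groups did not overlap, and the 5 highest and 3 lowest r to Lrtm1. Neighbours came from the GRCm38.p6 RefSeq gene table and promoter windows from RefSeq. Cacna1d, Cacna1f, Cacna2d2, Cacng3 and the neighbour Wnt5b were named after their values were seen. The same holds for the macrophage markers C1qa, C1qc, Mrc1, Cd163 and Gpnmb. Alternatives were other normalizations, filters on dim genes, the mean over clusters, all deposited clusters, other variance priors, a weight per array, a block for the replicate number and leaving out arrays. Plots were made in Python 3.11.15 with matplotlib 3.10.9.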

Additional observations from a re-analysis of the deposited data

Results flagged for a closer look

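Dixon's test was applied to each genotype's 4 values of the gap and of most named genes. Genes of the marker lists and those named only after their values were seen were left out, so their outliers were not checked. Of the 82 groups examined 2 were past the 95% critical value, where chance flags about 5%. Both concern neighbours of the hosts in wild type 1. Selenok measured 4.72 there against 5.08 to 5.12 in the other wild types, and Dcp1b measured 6.22 against 5.87 to 5.92. Values of the 4 members and of the gap between Lrtm1 and Cacna2d3 were within the critical value in both genotypes.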

How the results depend on the processing

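Over 19 alternatives the Lrtm1 difference lay between 1.34 and 1.64 and its adjusted p was under 0.05 in 11, being 0.245 over all deposited clusters and 0.109 with the replicate number as a block. The gap between Lrtm1 and Cacna2d3 widened by 1.22 to 1.55 over 17 alternatives and by 1.37 without wild type 2 and knockout 4. The Cacna2d3 difference stayed between 0.04 and 0.13 and that of Cacna2d4 between 0.25 and 0.45, and neither passed under any alternative run; 2 filters on dim genes removed Cacna2d3 and 1 removed Lrtm2. Lrtm2 turned to 0.0104 after quantile normalization and to 0.05 without wild type 2 and knockout 4, and ran from -0.0572 to 0.0504 when 1 array was left out. Genes past the threshold numbered 3, and 11 and 13 without the dimmest 25% and 50%, where fewer genes are tested, 0 over all clusters, 17 with an intensity trend and robust prior, 0 with the replicate block, 1 without wild type 2 and knockout 4, and 0 to 5 when 1 array was left out. Of the leucine-rich repeat list 1 passed, with 0 over all clusters and under the block, and 0 to 1 when 1 array was left out; 0 of the calcium channel list passed throughout. Same-numbered animals deviated together by correlations of -0.10 to 0.22. Such values cannot settle whether the numbers pair animals, and the labels do not say. The cause of these changes was not tested.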
